A study of Phaseolus vulgaris with 24 samples.

Results

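The genes described here are 100 of the 27213 genes counted in roots and leaves of 2 common bean (Phaseolus vulgaris L.) genotypes, and they were chosen by their measured root levels, which were higher after salt in Ispir and nearly the same in TR43477. Ispir is described as the salt-tolerant and TR43477 as the salt-susceptible variety. For the choice, each count was divided by the total of its library and scaled to CPM, counts per 1e6 counts of the library, and the level was taken as log2(CPM + 1). A gene was kept if its mean level in TR43477 roots differed by less than 0.3 between salt and control and if the 3 Ispir salt roots did not overlap the 3 Ispir control roots. The 100 genes with the largest difference of mean levels in Ispir roots were then taken from the 1928 genes that met both conditions and were higher after salt. The rule used all 12 root libraries, so the root values below are a description with no test, whereas the 12 leaf libraries took no part in the choice.

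Plants of each genotype and treatment were grown in hydroponics and gave leaf and root libraries. The groups were Ispir under salt, Ispir controls, TR43477 under salt and TR43477 controls, with 3 plants as replicates per genotype, tissue and treatment, which made 24 libraries in 8 groups. NaCl was given at 50 mM on the first day and 100 mM on the second, and was then held at 125 mM for 3 days before leaves and roots were collected. Each genotype is 1 line, so that a difference between Ispir and TR43477 is a difference between these lines under these conditions. Ispir seedlings were moved to hydroponics at a later day after sowing than TR43477 seedlings. Genotype and time since sowing therefore went together in every comparison of the lines.

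Salt limits water uptake by roots and loads their cells with sodium and chloride. Root cells answer with chaperones, such as heat shock proteins, that keep other proteins folded, with late embryogenesis abundant (LEA) proteins that protect dehydrating cells, and with enzymes that loosen or seal the cell wall. Transporters adjust the flow of ions and nutrients, and many defence proteins also accumulate under osmotic stress.

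Library totals lay between 12163655 and 26416766 counts, and a count of 3 in a leaf library equals 0.141 to 0.247 CPM. These limits cover counting error only. As a check of tissue, 54 photosynthesis genes that the study listed and that are not among the 100 summed to 11299 to 104590 CPM in leaf libraries and 142.67 to 795.03 CPM in root libraries. The highest root sum was in TR43477 control replicate 3, while the other root libraries reached at most 384.2 CPM. In whole tissue, a lower number of cells of a type and less RNA per cell cannot be told apart.

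The differences in Ispir roots lay between 1.36 and 3.47 on the log2(CPM + 1) scale, with a median of 1.67. The differences in TR43477 roots lay between −0.30 and 0.28, with a median of 0.07. Over the 24210 genes with a count in any root library, the medians were 0.0 in Ispir and 0.06 in TR43477. In Ispir roots, all 3 salt libraries stood above all 3 control libraries for 17.9% of genes, and for the members by the rule. The gap between the lowest salt and the highest control library had a median of 1.04 and ran between 0.15 and 2.85. The last 2 members taken had differences of 1.3568 and 1.3562, and the 2 genes just outside had 1.3425 and 1.3405.

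Summed over the 100 genes, the level was 3759.9, 3986.6 and 3661.2 CPM in Ispir salt roots and 1050.1, 884.38 and 918.18 CPM in Ispir control roots. In TR43477 roots the sum was 1420.5, 2180.1 and 1393.2 CPM under salt and 1558.6, 1322.6 and 2169.2 CPM in controls. The TR43477 groups overlapped, and in each of them 1 plant stood above the other two. Salt replicate 2 held the highest of the 3 salt values for 65 members, and control replicate 3 the highest of the 3 control values for 47. The small mean difference in TR43477 therefore did not always mean like values: the 6 TR43477 root libraries spanned less than 1 on the log2(CPM + 1) scale for 53 members, and for 14 members they spanned at least as much as the difference in Ispir. These counts were not taken over all genes, so whether they are particular to the members was not tested. Control replicate 3 was also the root library with the highest sum of the photosynthesis genes, and its part in the members' values was not tested.

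**Figure D1:**
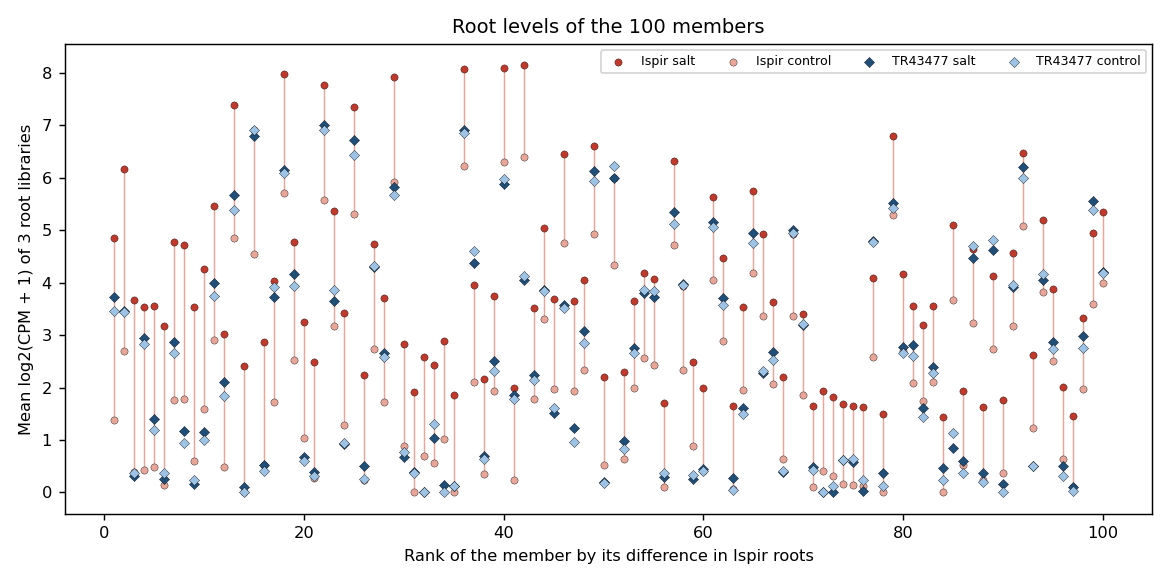
Mean log2(CPM + 1) of the 3 root libraries of each group (vertical axis) for the 100 members in order of their difference in Ispir roots (horizontal axis, rank), with Ispir salt and control as circles joined by a line and TR43477 salt and control as diamonds. The Ispir differences lie between 1.36 and 3.47 by the rule, while the pairs of diamonds stay within 0.30 of each other at heights that run from below the Ispir controls to above the Ispir salt mean.

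The level in TR43477 roots placed the members in different positions relative to Ispir. For 60 members all 6 TR43477 root libraries lay below the lowest Ispir salt library (11.5% of the 24210 genes), and for 9 of these they lay below the lowest Ispir control library as well (12.4% of genes). For 24 members all 6 lay above the highest Ispir control library (10.8% of genes), and for 7 of these they were at or above the lowest Ispir salt library (46.8% of genes). These counts follow in part from the choice, which favours high Ispir salt and low Ispir control values, and nothing is read from them. At most 3 counts were found in every TR43477 root library for 3 members, against 6.881% of all genes with a root count. The mean of TR43477 controls was above that of Ispir controls for 69 members (44.8% of genes), which the choice favours in the same way.

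Descriptions were at hand for 28 of the 100 members, from lists that the study made from these samples, so the groups of genes below were not chosen independently of the data. They comprise 3 heat shock proteins, 1 LEA protein, 3 cell wall enzymes, 3 cytochromes P450, 3 defence proteins, 1 flavonoid enzyme, 2 transporters, 2 photosystem proteins and 10 others. The treatment of reads that fit several genes is not given in the sources used here, so values of genes from families with near-identical copies are uncertain. This applies to the heat shock proteins, the cytochromes P450, the Bet v I protein, the chitinases, chalcone synthase and the alanine-glyoxylate transaminases.

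The member with the largest difference was Phvul.007G106300 (chromosome 7, 12631540 to 12633579), described as geraniol 8-hydroxylase, a cytochrome P450 that in Catharanthus acts in the synthesis of monoterpenoids. It had 38.1, 11.2 and 49.5 CPM in Ispir salt roots and 3.23, 1.02 and 1.07 CPM in Ispir control roots, and 6.76, 23.2 and 11.3 CPM in TR43477 salt roots against 26.2, 3.05 and 11.2 CPM in TR43477 control roots. The Ispir groups were apart, whereas the TR43477 libraries were spread from the range of the Ispir controls into that of the Ispir salt roots. Phvul.009G024301 (chromosome 9, 5984479 to 5988214), a protein of unknown function, came next with 52.1, 93.8 and 73.2 CPM in Ispir salt and 4.35, 3.37 and 10.8 CPM in Ispir control roots. Its TR43477 roots had 6.96, 16 and 8.81 CPM under salt and 7.81, 3.7 and 29.4 CPM in controls, all below the lowest Ispir salt library. This gene had 0 counts in all 12 leaf libraries, which allows up to 3 counts in each.

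The heat shock proteins had higher levels in Ispir salt roots than in any other root library. Phvul.004G129400 (chromosome 4, 42570924 to 42571484), a 22.0 kDa small heat shock protein that binds unfolding proteins, had 13.2, 9.83 and 12.2 CPM in Ispir salt roots and 0.0751, 0.392 and 0.498 CPM in Ispir control roots. In TR43477 roots it had 0.26, 0.189 and 0.305 CPM under salt and 0.676, 0.299 and 0 CPM in controls, so that the 3 Ispir salt libraries alone were above 1 CPM. Phvul.004G107700 (chromosome 4, 37559388 to 37562590), heat shock protein 90, a chaperone of signalling proteins, had 235, 287 and 294 CPM in Ispir salt roots and 79.9, 71.2 and 81.9 CPM in Ispir control roots. Its TR43477 roots held 54.6, 59.2 and 59.9 CPM under salt and 78, 76.4 and 39.8 CPM in controls, values within or below the range of the Ispir controls. Phvul.006G046000 (chromosome 6, 14972794 to 14973682), of the small HSP20 family, was scarce in roots, with 3.29, 1.12 and 2.29 CPM in Ispir salt, 0.15, 0.235 and 0.142 CPM in Ispir control, 0.26, 0.341 and 0.262 CPM in TR43477 salt and 0.3, 0.179 and 0 CPM in TR43477 control roots.

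The LEA-related gene Phvul.007G225200 (chromosome 7, 34875173 to 34877192) had 8.79, 26.3 and 5.02 CPM in Ispir salt roots and 0.45, 0 and 0.853 CPM in Ispir control roots. Its TR43477 roots had 0.845, 3.82 and 1.09 CPM under salt and 1.58, 0.657 and 1.8 CPM in controls. The Ispir salt libraries were all above the TR43477 ones and varied widely among themselves.

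**Figure D2:**
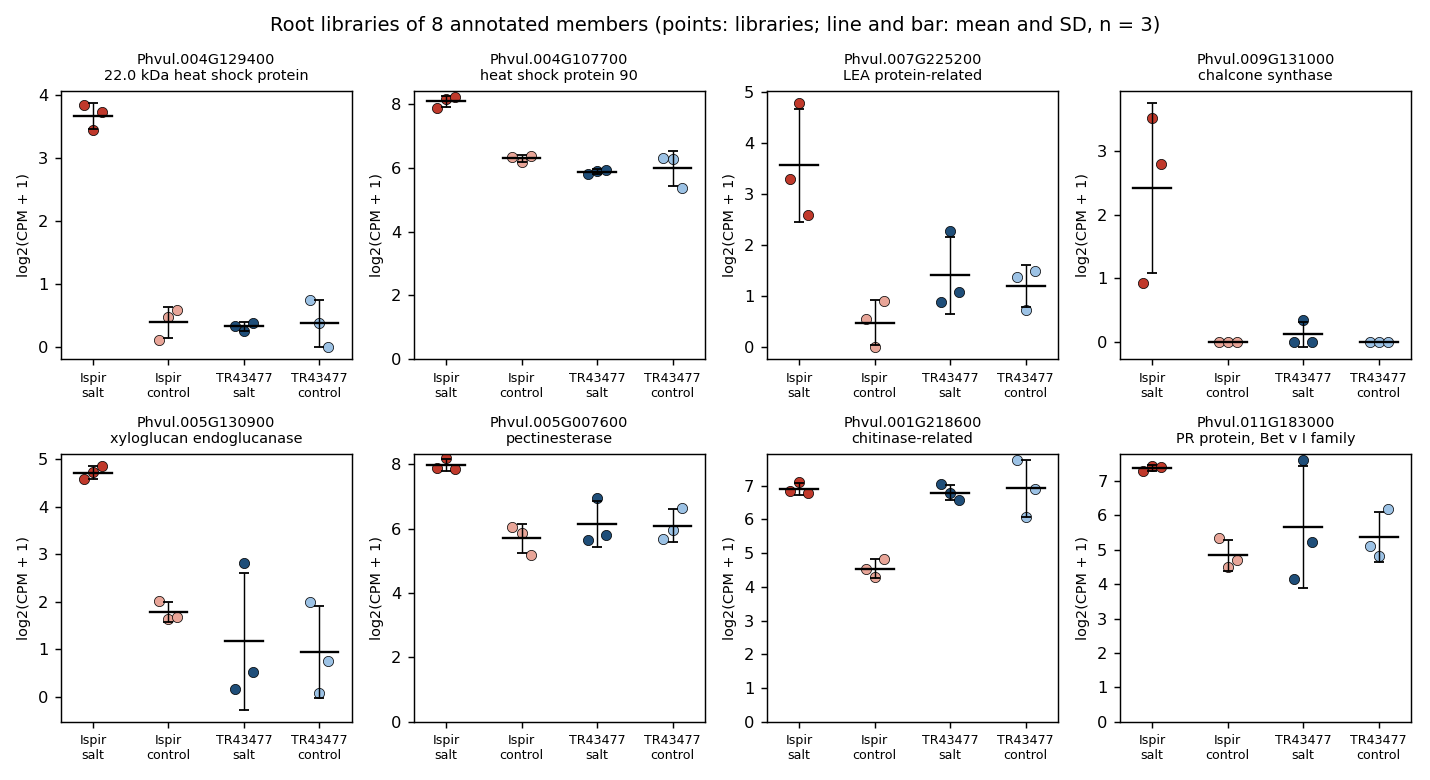
log2(CPM + 1) in the 12 root libraries (vertical axes) for 8 members with a description, by group (horizontal axes: Ispir salt, Ispir control, TR43477 salt, TR43477 control), with points for libraries, a line for the mean and a bar for the SD (n = 3). Ispir salt points lie above Ispir control points in all 8 panels by the rule, and the TR43477 points lie low for the heat shock protein, around the Ispir salt level for the chitinase-related gene and far apart from each other for the xyloglucan enzyme and the Bet v I gene.

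Among the cell wall enzymes, Phvul.005G130900 (chromosome 5, 36944794 to 36947158), an endoglucanase that cuts the hemicellulose xyloglucan, had 22.8, 25.5 and 28 CPM in Ispir salt roots and 3.08, 2.12 and 2.21 CPM in Ispir control roots. It had 0.13, 6.09 and 0.436 CPM in TR43477 salt roots and 3, 0.0597 and 0.693 CPM in TR43477 control roots. Each TR43477 group was spread widely, with 1 plant near or above the Ispir controls and the others below them. Phvul.005G007600 (chromosome 5, 622975 to 623987), a pectinesterase that removes methyl groups from pectin, had 234, 289.7 and 232 CPM in Ispir salt and 64.8, 57.7 and 35.6 CPM in Ispir control roots, and 49.5, 124 and 55.1 CPM in TR43477 salt against 50.0, 61.5 and 99.5 CPM in TR43477 control roots. Phvul.011G077900 (chromosome 11, 2070444 to 2072373), a beta-glucanase that cuts callose, had 3.62, 17.2 and 5.32 CPM in Ispir salt, 0.6, 0.392 and 0.213 CPM in Ispir control, 1.69, 14.8 and 0.873 CPM in TR43477 salt and 12.1, 2.21 and 0.0693 CPM in TR43477 control roots. The pectinesterase was clearly highest in Ispir salt roots, while single TR43477 plants of both treatments reached the Ispir salt level of the beta-glucanase.

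Defence proteins differed in where TR43477 stood. Phvul.001G218600 (chromosome 1, 47419027 to 47420319), described as chitinase-related (chitinases cut chitin of fungal walls), had 113, 136 and 108 CPM in Ispir salt roots and 22, 18.4 and 27.2 CPM in Ispir control roots. Its TR43477 roots had 131, 108 and 94.4 CPM under salt and 218, 66.1 and 119 CPM in controls, all above the Ispir controls and around the Ispir salt level. Phvul.009G116500 (chromosome 9, 17939587 to 17940715), a basic endochitinase, had 299, 395 and 189 CPM in Ispir salt and 90.4, 105 and 61 CPM in Ispir control roots, and 11.1, 26.4 and 12.5 CPM in TR43477 salt against 91.6, 6.93 and 6.3 CPM in TR43477 control roots. Here 5 of the 6 TR43477 libraries lay below all Ispir controls. Phvul.011G183000 (chromosome 11, 49647407 to 49649377), of the Bet v I family of pathogenesis-related proteins, had 156, 174 and 169.5 CPM in Ispir salt and 40, 21.5 and 24.9 CPM in Ispir control roots, and 16.6, 195 and 36.5 CPM in TR43477 salt against 33.4, 27.5 and 72.7 CPM in TR43477 control roots. Salt replicate 2 of TR43477 alone reached the Ispir salt level, and its mean difference in TR43477 was 0.28, near the limit of the rule.

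Chalcone synthase, Phvul.009G131000 (chromosome 9, 19791491 to 19792969), which makes the first flavonoid intermediate, had 0.904, 10.5 and 5.99 CPM in Ispir salt roots and 0 counts in the 3 Ispir control roots. Against a floor of 3 counts per library its mean in Ispir salt roots was at least 25.75-fold higher. It had 0, 0.265 and 0 CPM in TR43477 salt roots and 0 counts in TR43477 control roots. The described cytochromes P450 besides geraniol 8-hydroxylase were Phvul.004G021200 (chromosome 4, 2465903 to 2467865) and Phvul.009G061500 (chromosome 9, 11183955 to 11186049), both of the CYP2 subfamily, oxidising enzymes of many small molecules. Phvul.004G021200 had 9.2, 30.8 and 3.77 CPM in Ispir salt and 0.0751, 0.785 and 0.284 CPM in Ispir control roots, and 3.25, 23 and 3.4 CPM in TR43477 salt against 30.4, 0.418 and 7.2 CPM in TR43477 control roots, where 3 plants lay within the range of Ispir salt roots. Phvul.009G061500 had 0.329, 4.57 and 1.85 CPM in Ispir salt roots and 3 counts in all over the Ispir control roots, a ratio of pooled counts of 31.5 with a 95% counting interval of 10.4 to 155, and at most 0.265 CPM in any TR43477 root.

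Both transporters were present in every root library. Phvul.001G154200 (chromosome 1, 40435448 to 40442735), related to sulfate transporter 3.1, which in Arabidopsis brings sulfate into chloroplasts, had 111, 68.8 and 119 CPM in Ispir salt and 25.7, 23.6 and 41.5 CPM in Ispir control roots, and 51.6, 86.6 and 74.3 CPM in TR43477 salt against 47.1, 42.7 and 106 CPM in TR43477 control roots. Phvul.004G102800 (chromosome 4, 36269288 to 36273362), related to the anion channel SLAH2, which in Arabidopsis carries nitrate, had 57.9, 46 and 43.2 CPM in Ispir salt and 14.8, 15.8 and 16.2 CPM in Ispir control roots, and 35.8, 39.2 and 29.9 CPM in TR43477 salt against 23.9, 30.4 and 47.5 CPM in TR43477 control roots. In both, the TR43477 libraries lay above the Ispir controls, and some reached the Ispir salt values.

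Genes of photosynthesis were also among the members. Phvul.009G125100 (chromosome 9, 19097977 to 19099652), PsbS, the photosystem II subunit that lets leaves shed excess light energy as heat, had 14.3, 5.9 and 10.9 CPM in Ispir salt and 1.88, 1.41 and 1.07 CPM in Ispir control roots, and 1.24, 0.946 and 0.567 CPM in TR43477 salt against 1.35, 1.25 and 0.346 CPM in TR43477 control roots. Phvul.001G165200 (chromosome 1, 41938738 to 41939704), Psb28, which takes part in the assembly of photosystem II, had 24.1, 5.9 and 10.4 CPM in Ispir salt and 3.3, 4.47 and 1.71 CPM in Ispir control roots, and 8.38, 5.6 and 3.97 CPM in TR43477 salt against 4.13, 7.35 and 4.78 CPM in TR43477 control roots. Phvul.010G016000 (chromosome 10, 2360622 to 2363749), Rubisco activase, which frees the carbon-fixing enzyme of inhibitors, had 9.45, 9.27 and 13.4 CPM in Ispir salt and 0.675, 0.706 and 0.213 CPM in Ispir control roots, and 0.065, 0.227 and 0.0873 CPM in TR43477 salt against 0.375, 0.119 and 0.0693 CPM in TR43477 control roots. For PsbS and Rubisco activase all TR43477 roots lay below the Ispir salt roots, while for Psb28 they overlapped them. The sum of the 54 other photosynthesis genes did not move this way in Ispir roots: it was 331.59 to 351.16 CPM under salt and 343.59 to 384.2 CPM in controls. In TR43477 roots this sum was lower under salt without overlap, with 142.67 to 202.98 CPM against 259.52 to 795.03 CPM in controls.

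The remaining described members were diverse. Phvul.001G180500 (chromosome 1, 43830772 to 43832767), an uncharacterized nodulin-like protein, averaged 8.25 ± 2.96 CPM in Ispir salt roots and 0.0999 ± 0.0436 CPM in Ispir control roots (SD, n = 3 each), and at most 0.53 CPM in any TR43477 root. Phvul.010G083700 (chromosome 10, 24349033 to 24351755), named myeloid leukemia factor after its animal relatives, had 16.3, 20.5 and 17.9 CPM in Ispir salt and 1.95, 1.8 and 2.35 CPM in Ispir control roots, and 1.36, 1.17 and 1.18 CPM in TR43477 salt against 1.8, 0.657 and 0.693 CPM in TR43477 control roots. All 6 TR43477 values were thus at or below the lowest Ispir control. Phvul.011G157500 (chromosome 11, 44904915 to 44909680), related to the tyrosine aminotransferase TAT2, averaged 34 ± 22.7 CPM in Ispir salt and 2.46 ± 0.947 CPM in Ispir control roots (SD, n = 3 each). Phvul.011G046300 (chromosome 11, 4156692 to 4158030), a BURP domain protein of a family found in plant cell walls, had 232, 228 and 261 CPM in Ispir salt and 69.2, 40.02 and 76.8 CPM in Ispir control roots, and had 0 counts in all leaf libraries.

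Of the alanine-glyoxylate transaminases, enzymes that make glycine in photorespiration, Phvul.010G078258 (chromosome 10, 18726851 to 18732879) had 108, 217 and 182 CPM in Ispir salt and 34.5, 35.9 and 46.6 CPM in Ispir control roots, and 99.8, 117 and 95.3 CPM in TR43477 salt against 56, 65.6 and 166 CPM in TR43477 control roots. Phvul.008G087600 (chromosome 8, 8618264 to 8624234) had 257, 234 and 325 CPM in Ispir salt and 69.7, 56.9 and 100.1 CPM in Ispir control roots, and 127, 97.9 and 137 CPM in TR43477 salt against 70.5, 70.6 and 297 CPM in TR43477 control roots. In both genes TR43477 control replicate 3 was the highest TR43477 library and lay within the Ispir salt range. Phvul.005G065700 (chromosome 5, 10888602 to 10890215), described as comitin, an actin-binding protein known from Dictyostelium, averaged 25.7 ± 2.57 CPM in Ispir salt and 5.89 ± 1.99 CPM in Ispir control roots. Phvul.011G122900 (chromosome 11, 27164423 to 27165158), a monothiol glutaredoxin of the enzymes that act on protein thiols, averaged 87.3 ± 15 CPM in Ispir salt and 26.2 ± 4.84 CPM in Ispir control roots, and at most 22.1 CPM in any TR43477 root (SD, n = 3 for each mean).

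Whether these genes also responded in leaves was tested in libraries that the choice had not used. In Ispir leaves, 16 members rose and 2 fell after salt among the 89 that could be tested. Those that rose include all 3 heat shock proteins, the LEA-related gene, Psb28, Rubisco activase, the nodulin-like protein and myeloid leukemia factor, and 8 genes with no description. A gene was called if its log2 fold change exceeded 1 in size and its Benjamini-Hochberg adjusted p over all genes was under 0.01 in the quasi-likelihood test of edgeR. The 16 are 18% of the members tested, while 2.66% of all genes tested were called higher, and the 2 are 2.25%, while 2.15% of all genes were called lower. The median log2 fold change of the members was −0.08, beside −0.09 over all genes, with 44 members above 0 and 45 below, and it was 0 and −0.01 with groups of 0 counts set to a floor of 3 counts per library. Without the 6 members that the study had listed for leaves, 14 of 83 (16.9%) rose. HSP20 and Psb28 are among these 6. The study listed them from these leaf samples, so their rise in leaves is not independent of that choice. Only 6 of the 18 calls were made in every fit that left out 1 library. The number called higher was 6 without Ispir leaf salt replicate 2 (6.82%, beside 0.324% of all genes) and 6 without replicate 3 (6.74%, beside 0.467%). It was 8 without control replicate 2 (8.99%, beside 0.591%) and 9 without salt replicate 1 (10.1%, beside 1.61%), so calls over all genes fell in these fits as well. The number called lower was 5 without control replicate 3 (5.62%, beside 2.91% of all genes) and 1 without salt replicate 1 (1.12%, beside 0.904%). It was 0 without each of the other 3 libraries just named, where 0.0856% to 0.533% of all genes were called lower.

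Standard errors given here are the size of the log2 fold change divided by the square root of F, not model estimates. The 22.0 kDa heat shock protein (Phvul.004G129400) had 2.79, 5.25 and 7.05 CPM in Ispir salt leaves and 0, 0.0469 and 0 CPM in Ispir control leaves. The groups were apart, and since the controls held 1 count in all, the ratio of pooled counts of 285 had a 95% counting interval of 50.6 to 11300. HSP20 (Phvul.006G046000) had 305, 217 and 528 CPM in Ispir salt leaves and 0.812, 1.97 and 3.39 CPM in Ispir control leaves, log2 fold change 7.45 with a standard error of 0.65 (edgeR adjusted p = 0.0014). Heat shock protein 90 (Phvul.004G107700) had 1151, 709.9 and 1075 CPM in Ispir salt leaves and 133, 29.9 and 26.7 CPM in Ispir control leaves, log2 fold change 4.07 with a standard error of 0.67 (edgeR adjusted p = 0.0092). All 3 genes were higher in each Ispir salt leaf than in each Ispir control leaf. The adjusted p of the 22.0 kDa protein was 0.0023 from the same edgeR test, but 0.016 without Ispir leaf salt replicate 2, and that of heat shock protein 90 was 0.036 without the same library, so these calls ended there, whereas HSP20 stayed at or under 0.0088.

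In TR43477 leaves the heat shock members did not pass the test, and salt and control were apart for the 22.0 kDa protein and heat shock protein 90 but not for HSP20. The 22.0 kDa protein (Phvul.004G129400) had 0.47, 1.06 and 0.853 CPM in TR43477 salt leaves and 0.0747, 0 and 0.0696 CPM in TR43477 control leaves (edgeR adjusted p = 0.042). Heat shock protein 90 (Phvul.004G107700) had 2347, 2127 and 2683 CPM in TR43477 salt leaves and 10.6, 185 and 378 CPM in TR43477 control leaves (edgeR adjusted p = 0.076). HSP20 (Phvul.006G046000) had 14.7, 23.6 and 16 CPM in TR43477 salt leaves and 0.748, 3.06 and 38.2 CPM in TR43477 control leaves (edgeR adjusted p = 0.93). For HSP20, TR43477 leaf control replicate 3 was the highest TR43477 library. The difference between the genotypes' leaf responses, Ispir minus TR43477, was 4.11 for the 22.0 kDa protein (edgeR adjusted p = 0.081), 0.66 for heat shock protein 90 (0.80) and 7.27 for HSP20 (0.010), so a difference between the genotypes was not shown for these genes at the threshold. Of the 3 other heat shock genes on the study's lists, 2 rose in Ispir leaves and 2 in TR43477 leaves by the same test.

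The LEA-related gene was called in the leaves of both genotypes. It (Phvul.007G225200) had 5.43, 2.04 and 1.7 CPM in Ispir salt leaves and 0, 0.0469 and 0 CPM in Ispir control leaves, and 244, 161 and 93 CPM in TR43477 salt leaves against 0.224, 0.0764 and 0.417 CPM in TR43477 control leaves. Salt and control were apart in both genotypes, with the highest leaf levels in TR43477 under salt. In Ispir, where the controls held 1 count in all, the ratio of pooled counts was 161 with a 95% counting interval of 28.5 to 6430 (edgeR adjusted p = 0.0046), and in TR43477 the log2 fold change 9.14 with a standard error of 0.64 (edgeR adjusted p = 0.0015). The adjusted p was 0.022 without Ispir leaf control replicate 2 and 0.014 without TR43477 leaf salt replicate 2. The difference between the 2 responses was −2.21 with a standard error of 2.82 (edgeR adjusted p = 0.65). In roots, which chose the gene, its mean level had been higher under salt in Ispir by 3.08 and in TR43477 by 0.21 on the log2(CPM + 1) scale. The study's lists hold 2 other LEA genes, which both rose in Ispir leaves and of which 1 rose in TR43477 leaves by the same test.

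**Figure D3:**
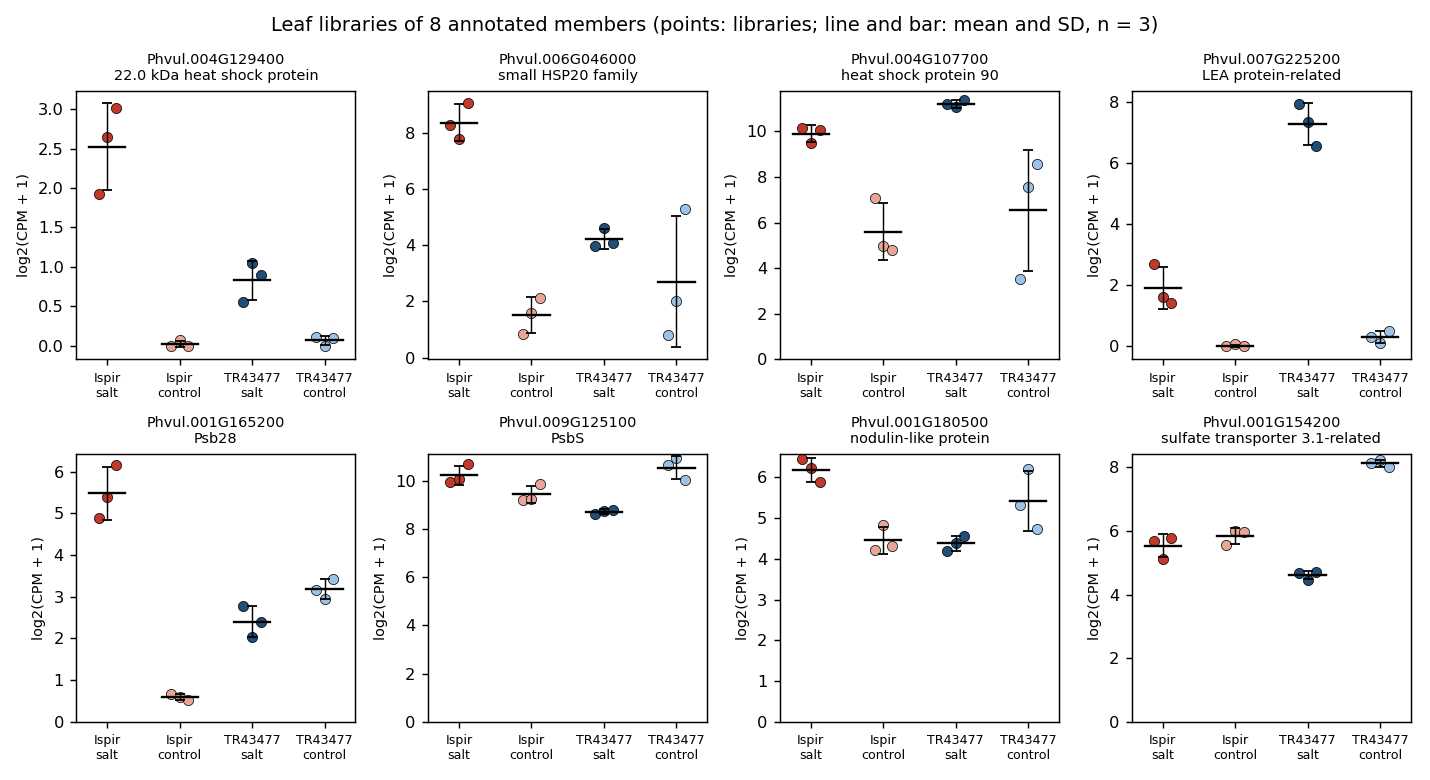
log2(CPM + 1) in the 12 leaf libraries (vertical axes) for 8 members with a description, by group (horizontal axes: Ispir salt, Ispir control, TR43477 salt, TR43477 control), with points for libraries, a line for the mean and a bar for the SD (n = 3). The heat shock and LEA panels are higher under salt than in controls in both genotypes except for HSP20 in TR43477, where 1 control lies above the salt libraries, and the lower row shows 4 genes whose response differed between the genotypes.

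Rubisco activase and myeloid leukemia factor rose in Ispir leaves. Rubisco activase (Phvul.010G016000) had 352, 326 and 274 CPM in Ispir salt leaves and 41.2, 16.5 and 12.9 CPM in Ispir control leaves, log2 fold change 3.87 with a standard error of 0.44 (edgeR adjusted p = 0.003). Myeloid leukemia factor (Phvul.010G083700) had 52.9, 31 and 52.5 CPM in Ispir salt leaves and 5.61, 2.35 and 2.35 CPM in Ispir control leaves, log2 fold change 3.85 with a standard error of 0.40 (edgeR adjusted p = 0.0021). Both were apart between treatments, and they were also apart in TR43477, where Rubisco activase had 291, 303 and 402 CPM in salt leaves and 9.42, 41.7 and 41.2 CPM in control leaves (edgeR adjusted p = 0.016), and myeloid leukemia factor 34.7, 41 and 25.1 CPM in salt leaves and 0.224, 3.67 and 3.69 CPM in control leaves (edgeR adjusted p = 0.033). The calls in Ispir ended without 1 library, with an adjusted p of 0.019 for Rubisco activase without Ispir leaf salt replicate 2 and 0.012 for myeloid leukemia factor without Ispir leaf salt replicate 3.

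Among members with no description, the smallest adjusted p-values in Ispir leaves belonged to Phvul.008G016600 (chromosome 8, 1349472 to 1350745) and Phvul.004G044100 (chromosome 4, 5219661 to 5222702). Phvul.008G016600 had 34.5, 24.2 and 25.2 CPM in Ispir salt leaves and 0.885, 1.22 and 0.659 CPM in Ispir control leaves, log2 fold change 4.99 with a standard error of 0.28 (edgeR adjusted p = 0.00048). Phvul.004G044100 had 15.2, 16.4 and 18.5 CPM in Ispir salt leaves and 0.59, 0.375 and 0.706 CPM in Ispir control leaves, log2 fold change 4.99 with a standard error of 0.31 (edgeR adjusted p = 0.00065). Both were apart between treatments and were called in every fit without 1 library. The 2 members that fell were Phvul.010G085100 (chromosome 10, 24022391 to 24023597) and Phvul.001G194900 (chromosome 1, 45399540 to 45400151). Phvul.010G085100 had 0.164, 0.0509 and 0 CPM in Ispir salt leaves and 4.8, 3.71 and 1.18 CPM in Ispir control leaves, a ratio of pooled counts of 0.0226 with a 95% counting interval of 0.00461 to 0.0671 (edgeR adjusted p = 0.0095). Phvul.001G194900 had 1.23, 1.83 and 1.05 CPM in Ispir salt leaves and 12.5, 10.4 and 4.66 CPM in Ispir control leaves, log2 fold change −2.60 with a standard error of 0.44 (edgeR adjusted p = 0.0097). These falls were opposite to the direction in Ispir roots, and both calls ended in fits without 1 library, with an adjusted p of 0.057 without Ispir leaf salt replicate 2 for the first and 0.045 without Ispir leaf salt replicate 3 for the second.

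In TR43477 leaves, 8 members rose and 2 fell among 87 tested. The 8 are 9.2% of the members tested, beside 2.62% of all genes called higher, and the 2 are 2.3%, beside 2.46% of all genes called lower (edgeR's quasi-likelihood test, same thresholds). The median log2 fold change of the members was 0.22, beside −0.09 over all genes (0.13 and −0.02 with groups of 0 counts at the floor). Besides the LEA-related gene, 1 undescribed gene, Phvul.004G044100, was called higher in both genotypes. The shared calls are 12.5% of the members called higher in Ispir leaves and 25% of those in TR43477 leaves. The overlap over all genes was not computed, so nothing is read from these shares. None of the 10 calls was made in every fit without 1 library. The number called higher was 1, 0 and 1 without TR43477 leaf salt replicate 1, 2 and 3 (1.15%, 0% and 1.16%, beside 0.0975%, 0.111% and 0.106% of all genes). It was 4 without control replicate 2 (4.6%, beside 1.96%). The number called lower was 0 without each salt library and 1 without control replicate 1 or 2 (1.15% each, beside 2.63% and 1.81%). In all, 25 to 32 genes were called in the fits without a salt library, against 1153 in the full fit.

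The alanine-glyoxylate transaminase Phvul.010G078258 had 207, 170.4 and 209.7 CPM in TR43477 salt leaves and 9.94, 13.7 and 4.45 CPM in TR43477 control leaves, log2 fold change 4.13 with a standard error of 0.46 (edgeR adjusted p = 0.0035). Comitin (Phvul.005G065700) had 64.1, 42.5 and 25.5 CPM in TR43477 salt leaves and 0.374, 2.52 and 1.6 CPM in TR43477 control leaves, log2 fold change 4.62 with a standard error of 0.71 (edgeR adjusted p = 0.0088). Both were apart between the treatments. In Ispir leaves the transaminase had 292, 182 and 140.0 CPM under salt and 56, 117 and 50.2 CPM in controls (edgeR adjusted p = 0.035), and comitin 38.1, 12.3 and 4.78 CPM under salt and 22.9, 3.8 and 3.34 CPM in controls (edgeR adjusted p = 0.48), where the groups overlapped. Without TR43477 leaf salt replicate 1 the adjusted p in TR43477 was 0.026 for the transaminase and 0.047 for comitin.

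Of the undescribed members that rose in TR43477 leaves, Phvul.001G182300 (chromosome 1, 44051559 to 44053154) and Phvul.006G045800 (chromosome 6, 14962916 to 14965906) had the smallest adjusted p-values. Phvul.001G182300 had 99.7, 75.8 and 96.1 CPM in TR43477 salt leaves and 18.8, 10.6 and 14.5 CPM in TR43477 control leaves, log2 fold change 2.40 with a standard error of 0.24 (edgeR adjusted p = 0.0028). Phvul.006G045800 had 124, 131 and 121 CPM in TR43477 salt leaves and 23.9, 22.9 and 38.7 CPM in TR43477 control leaves, log2 fold change 1.91 with a standard error of 0.23 (edgeR adjusted p = 0.0044). Both were apart between treatments in TR43477. In Ispir leaves Phvul.001G182300 had 15.2, 8.35 and 4.7 CPM under salt and 31.1, 27 and 17.2 CPM in controls, and Phvul.006G045800 264, 88.6 and 77.2 CPM under salt and 291, 109 and 78.6 CPM in controls. Without TR43477 leaf salt replicate 1 the adjusted p in TR43477 was 0.025 and 0.032 for these genes.

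**Figure D4:**
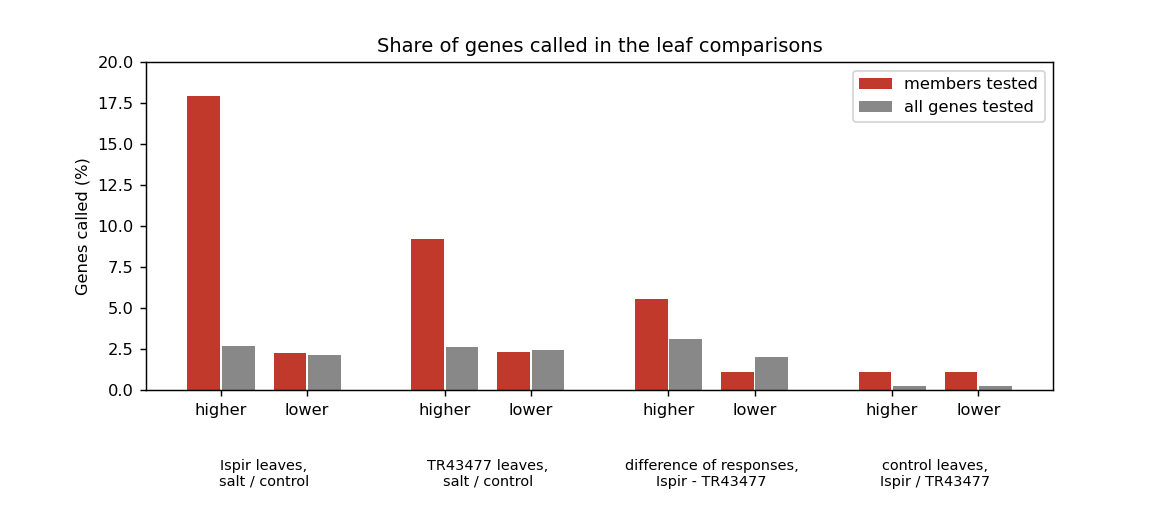
Percentage of genes called higher or lower (vertical axis) in the 4 leaf comparisons (horizontal axis), for the members tested and for all genes tested, at a log2 fold change over 1 in size and an adjusted p under 0.01. The members reach 18% called higher in Ispir leaves and 9.2% in TR43477 leaves, beside 2.66% and 2.62% of all genes, and 2.25% and 2.3% called lower, beside 2.15% and 2.46% of all genes.

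The sulfate transporter and PsbS fell in TR43477 leaves. The sulfate transporter (Phvul.001G154200) had 24.4, 21 and 24.9 CPM in TR43477 salt leaves and 283, 299 and 254 CPM in TR43477 control leaves, log2 fold change −3.81 with a standard error of 0.20 (edgeR adjusted p = 0.00064). In Ispir leaves it had 50.3, 33.9 and 54.4 CPM under salt and 46.3, 63.2 and 60.9 CPM in controls (edgeR adjusted p = 0.54). PsbS (Phvul.009G125100) had 393, 424 and 446 CPM in TR43477 salt leaves and 1628, 1954 and 1048 CPM in TR43477 control leaves, log2 fold change −2.12 with a standard error of 0.32 (edgeR adjusted p = 0.0085). In Ispir leaves PsbS had 974, 1071 and 1635 CPM under salt and 586, 608 and 919.8 CPM in controls (edgeR adjusted p = 0.11). The TR43477 groups did not overlap for either gene. Without TR43477 leaf salt replicate 1 the adjusted p in TR43477 was 0.014 for the sulfate transporter and 0.066 for PsbS. Of the 54 other photosynthesis genes, which the study listed from these samples, 35 fell in TR43477 leaves, and 5 rose in Ispir leaves by the same test.

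The difference between the leaf responses, Ispir minus TR43477, was tested over the 12 leaf libraries as the interaction of genotype and treatment. It was positive and past the threshold for 5 of 90 members (5.56%, beside 3.1% of all genes) and negative for 1 (1.11%, beside 2.04%), with a median of −0.46 for the members and −0.03 for all genes. Without the members that the study had listed for leaves, the positive calls were 3 of 84 (3.57%), near the share of all genes. Nothing about the members as a set is read from these shares. The number of positive calls was 2, 2 and 3 without TR43477 leaf salt replicate 1, 2 and 3 (2.22%, 2.22% and 3.33%, beside 0.873%, 0.792% and 0.809% of all genes). It was 3 without Ispir leaf control replicate 2 (3.33%, beside 1.08%), and 9 and 8 without TR43477 leaf control replicate 1 and 2 (10% and 8.89%, beside 4.22% and 3.8%). The number of negative calls was 2 and 5 without TR43477 leaf control replicate 1 and 2 (2.22% and 5.56%, beside 2.38% and 2.85%). It was 3 without Ispir leaf salt replicate 1 (3.33%, beside 1.85%).

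Psb28 (Phvul.001G165200) had the largest of these differences. It had 28.6, 40.9 and 70.0 CPM in Ispir salt leaves and 0.59, 0.516 and 0.424 CPM in Ispir control leaves, log2 fold change 6.62 with a standard error of 0.46 (edgeR adjusted p = 0.00079). In TR43477 leaves it had 5.8, 3.06 and 4.26 CPM under salt and 7.92, 6.72 and 9.74 CPM in controls (edgeR adjusted p = 0.056). The groups did not overlap in either genotype, with salt above control in Ispir and below it in TR43477. The difference of the responses was 7.75 with a standard error of 0.55 (edgeR adjusted p = 0.00022), and it was called in every fit without 1 library. In Ispir controls, Phvul.001G165200 was lower in leaves than in roots, where it had 3.3, 4.47 and 1.71 CPM. The study's photosynthesis list also names Phvul.007G153500 as Psb28, whose values are not given here. The values of Phvul.001G165200 therefore do not stand for all Psb28 transcripts, and reads shared between these genes were not tested. Of the 54 other photosynthesis genes, 28 had a positive difference past the threshold. The study listed these genes, and Psb28 with them, from these samples, so the count is not independent of that choice.

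The sulfate transporter (Phvul.001G154200) followed with a difference of 3.61 (standard error 0.31, edgeR adjusted p = 0.00051), the nodulin-like protein (Phvul.001G180500) with 3.31 (0.51, 0.0030) and PsbS (Phvul.009G125100) with 3.03 (0.49, 0.0034). The nodulin-like protein had 85.8, 73.8 and 57.6 CPM in Ispir salt leaves and 17.6, 27.5 and 18.9 CPM in Ispir control leaves, log2 fold change 1.85 with a standard error of 0.23 (edgeR adjusted p = 0.0038). Its TR43477 leaves had 17.2, 19.9 and 22.8 CPM under salt and 38.6, 72.4 and 25.7 CPM in controls (edgeR adjusted p = 0.056), so that it lay above the controls in Ispir and below them in TR43477. Its call in Ispir ended without Ispir leaf salt replicate 2 (adjusted p = 0.025). Of these interactions, that of the nodulin-like protein had an adjusted p of 0.012 without TR43477 leaf salt replicate 2 and that of PsbS of 0.013 without Ispir leaf control replicate 2, and that of the sulfate transporter stayed at or under 0.0032.

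The other 2 interactions concerned undescribed genes. Phvul.007G011600 (chromosome 7, 823841 to 826817) had a difference of 2.14 (standard error 0.43, edgeR adjusted p = 0.0090), with 26.1, 33.3 and 34.9 CPM in Ispir salt leaves and 11, 9.01 and 16.7 CPM in Ispir control leaves, and 13.8, 12.4 and 15 CPM in TR43477 salt leaves against 11.5, 20.9 and 23.6 CPM in TR43477 control leaves. The groups were apart in Ispir and overlapped in TR43477, and the adjusted p was 0.030 without TR43477 leaf salt replicate 2. Phvul.001G182300, whose values are given with the TR43477 calls, had a difference of −3.72 (standard error 0.50, edgeR adjusted p = 0.0019) and was called in every fit without 1 library.

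**Figure D5:**
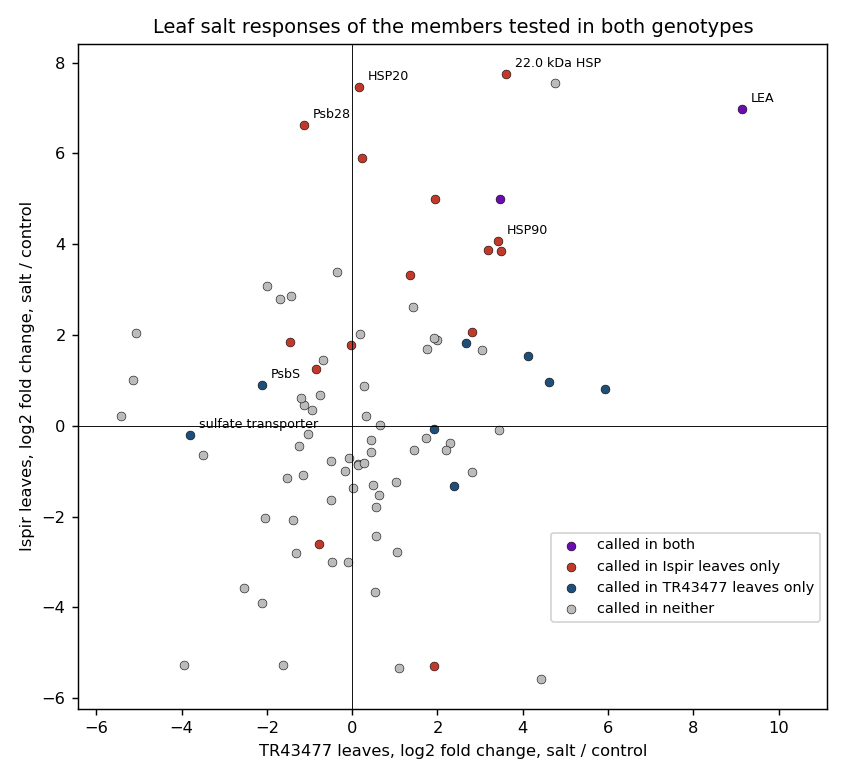
log2 fold change of salt over control in Ispir leaves (vertical axis) against that in TR43477 leaves (horizontal axis) for the 86 members tested in both, coloured by whether edgeR's test called them. The LEA gene and 1 other are called in both, the heat shock genes and Psb28 lie high on the Ispir axis, and the sulfate transporter and PsbS lie left of zero on the TR43477 axis.

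In control leaves, 1 member was higher in Ispir than in TR43477 and 1 was lower, among 89 tested (1.12% each, beside 0.268% of all genes in each direction). Psb28 (Phvul.001G165200) was lower, with 0.59, 0.516 and 0.424 CPM in Ispir and 7.92, 6.72 and 9.74 CPM in TR43477 control leaves, log2 fold change −4.11 with a standard error of 0.37 (edgeR adjusted p = 0.0068). The undescribed Phvul.011G138500 (chromosome 11, 35213484 to 35214830) was higher, with 9.07, 8.49 and 10.2 CPM in Ispir and 0.374, 0.229 and 0.696 CPM in TR43477 control leaves, log2 fold change 4.28 with a standard error of 0.48 (edgeR adjusted p = 0.0098). The genotypes did not overlap for either gene. Both calls ended when any library other than TR43477 leaf control replicate 3 was left out, and without Ispir leaf control replicate 2 the adjusted p was 0.048 for Psb28 and 0.056 for the other gene. The median difference of the members was −0.32, beside −0.03 over all genes (−0.17 and 0 with groups of 0 counts at the floor). These 6 libraries are also the controls of the salt comparisons. In roots, Phvul.011G138500 had 39.5, 27.3 and 34.4 CPM in Ispir salt and 12, 12.3 and 10.9 CPM in Ispir control roots, and 0.845, 0.757 and 0.785 CPM in TR43477 salt against 1.05, 1.2 and 1.39 CPM in TR43477 control roots, so that the TR43477 values lay below the Ispir controls in roots as well.

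The described members that were not called in any leaf comparison were mostly those of the cell wall, defence and P450 groups. The endochitinase (Phvul.009G116500) had 46, 32 and 23.2 CPM in Ispir salt leaves and 528, 139 and 195 CPM in Ispir control leaves, a log2 fold change of −2.99 (edgeR adjusted p = 0.011). The beta-glucanase (Phvul.011G077900) had 6, 6.11 and 15.3 CPM in Ispir salt leaves and 279.7, 45 and 57.3 CPM in Ispir control leaves (log2 fold change −3.67, edgeR adjusted p = 0.023), and the CYP2 gene Phvul.009G061500 had 56.5, 11.6 and 5.67 CPM and 176, 194 and 151 CPM in the same groups (−2.78, 0.041). These genes had lower values in every Ispir salt leaf than in every Ispir control leaf, against their direction in Ispir roots, without reaching the threshold. Geraniol 8-hydroxylase (Phvul.007G106300) had 15.4, 14.3 and 8.02 CPM in Ispir salt leaves and 10.9, 4.13 and 19.2 CPM in Ispir control leaves, and 0.235, 1.81 and 1.84 CPM in TR43477 salt leaves against 14.5, 17.6 and 114 CPM in TR43477 control leaves. Its difference between the genotypes' responses was 5.61 with an edgeR adjusted p of 0.013.

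The Bet v I gene (Phvul.011G183000), the chitinase-related gene (Phvul.001G218600) and the transaminase Phvul.008G087600 were close to absent from leaves, with at most 0.407, 2.5 and 0.243 CPM in any leaf library. Chalcone synthase (Phvul.009G131000) had at most 2.1 CPM in any leaf. The pectinesterase (Phvul.005G007600) had 221, 166 and 111 CPM in Ispir salt leaves and 369.6, 49.6 and 46.3 CPM in Ispir control leaves, with overlap, and the SLAH2-related channel (Phvul.004G102800) had 47.1, 112 and 38 CPM in Ispir salt leaves and 18.1, 0.704 and 16 CPM in Ispir control leaves (edgeR adjusted p = 0.10). The aminotransferase (Phvul.011G157500) had 398, 334 and 314 CPM in TR43477 salt leaves and 77, 108 and 142 CPM in TR43477 control leaves (edgeR adjusted p = 0.017). Over all members, 14 had at most 3 counts in every leaf library, of which 10 had 0, and 46 had a higher mean CPM in leaf than in root libraries. The shares over all genes were not computed for these counts, and nothing is read from them.

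The members lay on all 11 chromosomes, with 16 on chromosome 11 (7.864% of all genes are there), 14 on chromosome 9 (9.808%), 13 on chromosome 1 (9.782%) and 12 on chromosome 2 (12.185%). Starts of consecutive members lay within 50000 bases of each other in 3 places, each a pair. The gene of the HSP20 protein (Phvul.006G046000) starts 9878 bases after Phvul.006G045800, which rose in TR43477 leaves, and 1 gene stands between them in the table. The other pairs, of undescribed genes, lay on chromosome 2 with starts 25444 bases apart and on chromosome 3 with starts 28111 bases apart.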

How the data were processed

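RNA of leaves and roots was sequenced by the authors from stranded poly(A) libraries. Reads were trimmed (Trimmomatic), mapped to version v2.1 of the bean genome (HISAT2) and counted per gene in SeqMonk, and the deposited count values are not normalized. Settings for strand and for reads that fit several genes are not given in the sources used here. The deposited P-value, FDR and log2 fold change columns hold the authors' own edgeR comparison of salt with control and were not used.

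Columns were joined by gene identifier, and 12 root libraries entered the choice of members, with a pseudocount of 1 on CPM. Leaf counts were tested in R 4.3.3 with edgeR 4.0.16 (TMM, glmQLFit and glmQLFTest, two-sided, genes with at least 1 count over the fit, Benjamini-Hochberg adjustment over all genes of the fit), salt against control within a genotype, as the interaction over 12 libraries, and between genotypes in controls. Calls needed a log2 fold change over 1 in size and an adjusted p under 0.01. Total counts of leaf libraries were 12163655 to 21320920, which allow 3 counts at 0.141 to 0.247 CPM. The procedure was also run on simulated counts, whose outcome is not given here and from which nothing is read. Alternatives were DESeq2 1.42.0, upper-quartile normalization, filterByExpr, an adjusted p under 0.05, the replicate number as a block, fits without each library, and for the choice of members other pseudocounts, TMM-scaled totals, other limits and a minimum of 1 CPM.

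The members, gene lists and tests were chosen with earlier results of these data known. Named are the 28 members that the study's lists describe, the members with the largest difference, at most 2 undescribed genes per direction and comparison by adjusted p, the genes at the limit of the choice, and neighbours within 50000 bases. Identifiers of 0 members matched the reference gene table, so names come from the study's lists, and coordinates are those of v2.1 in the deposited tables. No sequence is shown. Single p-values set a difference against the spread between 3 plants per group, which edgeR estimates with information shared between genes.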

Additional observations from a re-analysis of the deposited data

Results flagged for a closer look

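The leaf salt response differed between the genotypes for 6 members by the interaction test (quasi-likelihood test of edgeR, adjusted over 23306 genes, 12 leaf libraries). Positive differences were called for 5.56% of the 90 members tested, beside 3.1% of all genes, and negative ones for 1.11%, beside 2.04%. Without the members that the study had listed for leaves, the positive share was 3.57%, near that of all genes. Nothing about the members as a set is read from these shares. Given as Ispir minus TR43477 on the log2 scale, the difference was 7.75 for Psb28 (Phvul.001G165200), 3.61 for the sulfate transporter (Phvul.001G154200), 3.31 for the nodulin-like protein (Phvul.001G180500) and 3.03 for PsbS (Phvul.009G125100). It was 2.14 for Phvul.007G011600 and −3.72 for Phvul.001G182300, which have no description. The calls of Phvul.001G165200, Phvul.001G154200 and Phvul.001G182300 were made in each of the 12 fits without 1 library, and the others were lost in 2 fits (Phvul.001G180500), 4 fits (Phvul.009G125100) and 10 fits (Phvul.007G011600).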

How the results depend on the processing

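With a pseudocount of 5 in place of 1, 59 of the 100 members were chosen again, and with the other settings between 70 and 92 (a pseudocount of 0.5 gave 82, TMM-scaled totals 92, a limit of 0.2 or 0.5 on the TR43477 difference 72 or 70, and a minimum of 1 CPM 86). When 1 root library was left out, the number lay between 64 (without TR43477 root control replicate 3) and 89, and 18 members were chosen in all 12 such fits. DESeq2 called more members than edgeR in each comparison. It called 21 higher and 10 lower in Ispir leaves (23.6% and 11.2% of members tested, beside 7.08% and 6.94% of all genes). In TR43477 leaves it called 17 higher and 7 lower (19.5% and 8.05%, beside 6.92% and 9.05%). Differences between the responses were positive for 11 and negative for 9 (12.2% and 10%, beside 7.82% and 6.42%). In control leaves 7 were higher and 10 lower in Ispir than in TR43477 (7.87% and 11.2%, beside 3.91% and 5.65%). Over all genes it called 3127, 3620, 3320 and 2180 in the 4 comparisons, against 1073, 1153, 1199 and 122 with edgeR. At an adjusted p under 0.05, edgeR called 21 members higher and 12 lower in Ispir leaves (23.6% and 13.5%, beside 6.99% and 7% of all genes). The same numbers were 15 and 4 in TR43477 leaves (17.2% and 4.6%, beside 6.51% and 7.52%) and 12 and 8 for the difference (13.3% and 8.89%, beside 8.41% and 6.7%). In control leaves they were 5 and 4 (5.62% and 4.49%, beside 2.35% and 2.7%). With edgeR's filterByExpr, 14 members were higher and 1 lower in Ispir leaves (21.5% and 1.54%, beside 3.04% and 2.68% of all genes). In control leaves 1 was higher and 2 were lower in Ispir than in TR43477 (1.56% and 3.12%, beside 0.322% and 0.345%). No call of a named member changed direction under any alternative.

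Leaving out 1 leaf library gave 6 to 15 members higher and 0 to 5 lower in Ispir leaves, where 0.324% to 3.51% and 0.0856% to 2.91% of all genes were called. In TR43477 leaves it gave 0 to 11 higher and 0 to 2 lower (0.0975% to 4.6% and 0.0133% to 4.74% of all genes). The differences were positive for 2 to 9 members and negative for 1 to 5 (0.792% to 4.22% and 0.443% to 2.85% of all genes). Between control leaves 0 to 1 were higher and 0 to 1 lower (0% to 0.186% and 0% to 0.262% of all genes). Same-numbered libraries did not deviate together in every pair (correlations of −0.153 to 0.221 in Ispir leaves, −0.158 to −0.016 in TR43477 leaves and −0.025 to 0.382 between control leaves), so the numbers were not taken as pairs, and how same-numbered plants were grown or processed is not given in the sources used here. With the replicate number as a block, 13 members were higher and 6 lower in Ispir leaves (14.6% and 6.74%, beside 2.57% and 2.05% of all genes), so the share called lower, which was 2.25% beside 2.15% without the block, was above that of all genes there. In TR43477 leaves 0 were called, where edgeR called 0 genes in all and 31 members had an unadjusted p under 0.05 (35.6%, beside 28% of all genes). The block also gave 0 higher and 0 lower between control leaves, where edgeR called 0 genes in all and 31 members had an unadjusted p under 0.05 (34.8%, beside 21.9% of all genes). It gave 5 positive and 1 negative differences between the responses (5.56% and 1.11%, beside 3.06% and 1.97% of all genes). The cause of these changes was not tested. Depth limits the 14 members with at most 3 counts in every leaf library, for which no difference was detectable.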
